A study of Solanum lycopersicum and Solanum pennellii with 32 samples.

Results

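The genes described are 10 of the 34843 gene models counted in roots of tomato seedlings, chosen because they belong to the flavonoid and anthocyanin pathway. They were found in the count tables of both species by gene ID. The early enzymes were CHS1 (Solyc09g091510), CHS2 (Solyc05g053550), CHI-like (Solyc05g010320) and F3H (Solyc02g083860). The branch enzymes were F3'5'H (Solyc11g066580) and FLS (Solyc11g013110), and the late enzymes were DFR (Solyc02g085020) and ANS (Solyc08g080040). The regulators were MYB12 (Solyc01g079620) and ANT1 (Solyc10g086260). The count tables pair no names with these IDs, so the names are those of the gene list by which the members were chosen.

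Flavonoids are made from a phenylpropanoid precursor and malonyl-CoA by chalcone synthase (CHS), whose product is closed into a flavanone by chalcone isomerase (CHI) and hydroxylated by flavanone 3-hydroxylase (F3H). At this point the pathway divides: flavonol synthase (FLS) makes flavonols, while dihydroflavonol reductase (DFR) and anthocyanidin synthase (ANS) lead to the coloured anthocyanins. F3'5'H, the flavonoid 3',5'-hydroxylase, adds the hydroxyl groups typical of blue and purple pigments. In tomato, MYB12 is a transcription factor known for switching on the early and flavonol genes in fruit skin, and ANT1 is one known for switching on the anthocyanin genes. Anthocyanin build-up in leaves and stems is a familiar sign of phosphate starvation in many plants, and flavonols in roots are known as modulators of auxin transport.

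The study compared 2 species, 2 root segments and 2 phosphate supplies, with 4 biological replicates in each of 8 groups. M82 is a cultivar of domesticated tomato, Solanum lycopersicum, and Pennellii is the wild relative Solanum pennellii. All seedlings, controls included, carried the 35S:TRAP construct, which drives a tagged ribosomal protein from a broadly active viral promoter, but the RNA described in the labels is total RNA. The medium either contained phosphate (sufficient) or had none added (limiting). Roots were taken from seedlings 8 to 10 days old, kept at 25 °C under a 12-hour day. The segments were the root tip, a piece of 1 cm, and the root midsection, and each replicate pooled 30 to 40 plants. In bulk segments of this kind, fewer cells of a type and less RNA per cell cannot be told apart, and the segment labels could not be checked against marker genes because the IDs carry no annotation here.

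Reads came from transcript 3' ends, and levels are given as TMM-scaled counts per 1000000 counts (CPM), without length correction. Total counts ran from 1084652 to 34103546 in the 16 M82 libraries and from 6225 to 13124725 in the Pennellii libraries. Pennellii tip limiting replicate 3 and Pennellii midsection sufficient replicate 1 were identical column for column, so both were left out and 30 of 32 libraries were used. Pennellii reads had been mapped to M82, so levels were not compared between species. Values below follow replicates 1 to 4, and errors of means are SDs with n = 4 unless stated.

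In M82 the clearest contrast in the pathway was along the root, as it was over all genes. Of all genes tested, 27.3% passed the test between segments at sufficient and 10.4% at limiting phosphate. Between supplies 1.42% passed in tips and 1.43% in midsections. At sufficient phosphate CHS2, FLS and ANS were lower in tips than in midsections, by 28.0-fold, 2.30-fold and 17.1-fold, and at limiting phosphate CHS2 was lower in tips by 56.2-fold. With limma-voom ANS was called at sufficient phosphate, but CHS2 and FLS were not. CHI-like and F3H, listed with CHS among the early enzymes, did not pass the test between segments. No member passed the test between phosphate supplies in either segment. Folds and tests here are from edgeR's quasi-likelihood test with Benjamini-Hochberg adjustment over all 18275 genes tested in M82, at an adjusted p threshold of 0.05. In M82, 6 of the 10 members passed the low-count filter, namely CHS1, CHS2, CHI-like, F3H, FLS and ANS. A sparse gene passes that filter only through the group where it is high, so these 6 do not stand for the pathway as a whole.

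**Figure D1:**
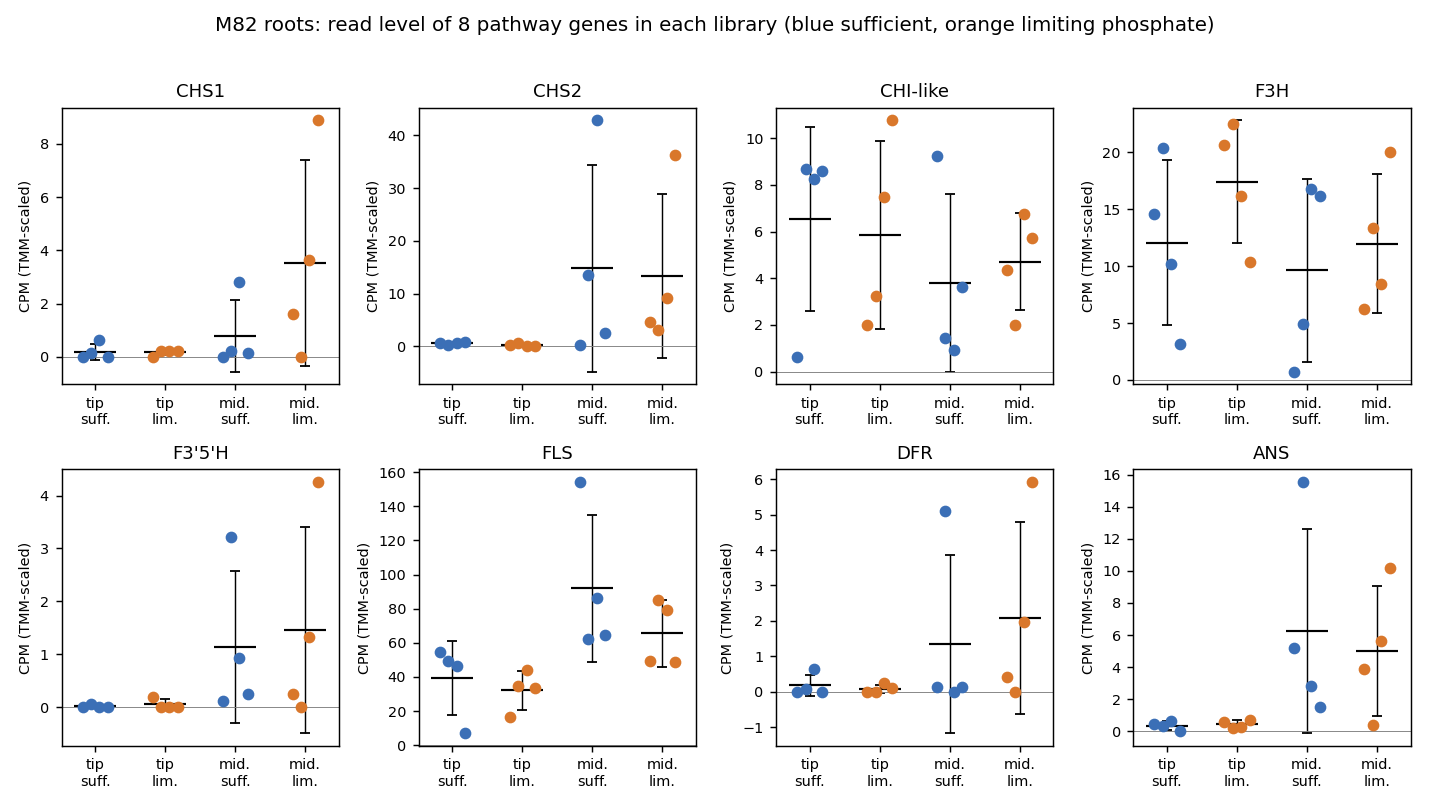
Level of 8 pathway genes (y axis, TMM-scaled CPM, linear, a separate scale for each gene) in the 16 M82 libraries, grouped by segment and phosphate supply (x axis). Each point is a library, the long horizontal line is the group mean and the error bar is the SD (n = 4). CHS2, ANS, F3'5'H and DFR lie near 0 in the tips and spread widely in the midsections, while CHI-like and F3H reach similar levels in both segments.

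Chalcone synthase, the entry enzyme, was represented by a pair of paralogs whose reads the counting could split between them, so their separate levels are uncertain. Fractional values occurred in 2 of 32 libraries for each, and their origin is not given. In M82 tips at sufficient phosphate CHS2 stood at 0.641, 0.221, 0.635 and 0.783 CPM, a mean of 0.570 ± 0.243. In the matching midsections it stood at 0.247, 13.4, 42.8 and 2.62 CPM, a mean of 14.8 ± 19.5. Midsection replicate 1 thus lay within the range of the tips, and the other 3 midsections lay above it.

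At limiting phosphate CHS2 was at 0.198, 0.608, 0 and 0.102 CPM in the tips, against 4.70, 3.16, 9.15 and 36.3 CPM in the midsections. All 4 midsections lay above all 4 tips. Summed over libraries, 5 counts in the limiting tips faced 387 in the midsections, and 12 faced 190 at sufficient phosphate. These counts give ratios of 50.4 (95% exact interval 21.4 to 156) and 23.7 (13.3 to 46.7), intervals that cover counting error only. Tip sufficient replicate 2 held 31691387 of the 39223865 TMM-scaled counts summed over its group. Summed M82 ratios that use the sufficient tips therefore rest largely on that library. For CHS2 at sufficient phosphate the ratio of mean CPM was 25.9.

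The fitted CHS2 difference, tip minus midsection, was -4.80 ± 1.39 (log2, SE) at sufficient phosphate, with an adjusted p of 0.0094 from edgeR. At limiting phosphate it was -5.81 ± 1.41, with an adjusted p of 0.00529 from edgeR. With limma-voom the sufficient difference was -2.69 with an adjusted p of 0.128. Single libraries carried part of this. Without midsection sufficient replicate 3, the highest library, the sufficient difference was -3.40 with an adjusted p of 0.0748, and without midsection limiting replicate 4 the limiting difference was -4.58 with an adjusted p of 0.0529. Without tip limiting replicate 2 the limiting difference was larger, at -6.84.

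CHS1, the other chalcone synthase, was near or at 0 in the tips. Its levels were 0, 0.126, 0.635 and 0 CPM at sufficient and 0, 0.203, 0.234 and 0.203 CPM at limiting phosphate. In midsections it stood at 0, 0.222, 2.79 and 0.125 CPM at sufficient and at 1.59, 0, 3.63 and 8.88 CPM at limiting phosphate. Each midsection group held a library with no CHS1 count, and the groups of tips and midsections overlapped at both supplies. The fitted tip minus midsection difference was -1.78 ± 2.07 (adjusted p = 0.572) at sufficient and -4.32 ± 1.89 (adjusted p = 0.167) at limiting phosphate, by edgeR's quasi-likelihood test.

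CHI-like, listed among the early enzymes, did not mirror CHS2. In the tips it was at 0.641, 8.68, 8.26 and 8.61 CPM with sufficient and at 1.98, 3.24, 7.47 and 10.8 CPM with limiting phosphate. The midsections held 9.25, 1.44, 0.931 and 3.62 CPM with sufficient and 4.36, 1.98, 6.76 and 5.74 CPM with limiting phosphate. Tips and midsections overlapped at both supplies, and the fitted differences, 0.72 ± 1.07 and 0.32 ± 1.05, had adjusted p-values of 0.670 and 0.931 in edgeR.

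F3H, which supplies the dihydroflavonols used by both branches, was also read at similar levels in both segments. Its tip means were 12.0 ± 7.25 CPM at sufficient and 17.4 ± 5.40 CPM at limiting phosphate, against midsection means of 9.62 ± 8.05 and 12.0 ± 6.11 CPM. The lowest library of all was midsection sufficient replicate 1, at 0.740 CPM, which was also the lowest of its group for CHS1, CHS2 and F3'5'H but the highest for CHI-like and FLS. The tip minus midsection differences in F3H were 0.39 ± 0.79 (log2, SE; adjusted p = 0.765) at sufficient and 0.54 ± 0.77 (adjusted p = 0.799) at limiting phosphate, by edgeR's quasi-likelihood test.

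FLS, the flavonol branch enzyme, held the most reads of the 10 members in 14 of 16 M82 libraries, with a median share of 63.4% of the member reads (lowest 34.7%, highest 90.8%). This compares reads from 3' ends, not amounts per length. At sufficient phosphate its levels were 54.7, 49.4, 46.4 and 7.05 CPM in tips and 154, 62.5, 86.6 and 64.5 CPM in midsections. Every midsection lay above every tip, with means of 91.9 ± 42.9 against 39.4 ± 21.8 CPM.

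At limiting phosphate the FLS levels were 16.6, 34.9, 43.9 and 33.4 CPM in tips and 49.1, 85.2, 79.3 and 48.5 CPM in midsections, again without overlap. The fitted FLS difference was -1.20 ± 0.44 (adjusted p = 0.0391) at sufficient and -1.03 ± 0.43 (adjusted p = 0.148) at limiting phosphate, by edgeR's quasi-likelihood test. The sufficient call rested on several libraries: the adjusted p was 0.191 without midsection replicate 1, where the difference was -0.83, 0.0605 without tip replicate 4 and 0.0516 without tip replicate 3. With limma-voom it was 0.0662.

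The anthocyanin arm showed its reads almost entirely in midsections. ANS was at 0.427, 0.316, 0.635 and 0 CPM in sufficient tips and at 5.18, 15.5, 2.79 and 1.50 CPM in sufficient midsections, so the groups did not overlap. Summed, 13 counts in tips faced 197 in midsections, a ratio of 22.7 (95% exact interval 13.0 to 43.4 for counting error). A single tip, replicate 2, gave 76.9% of those tip counts, and the ratio of mean CPM was 18.2. The fitted difference was -4.10 ± 1.47 with an adjusted p of 0.0359 from edgeR.

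That ANS call was lost in 8 of 15 alternatives. It was lost with no low-count filter, at an adjusted p of 0.0618 from edgeR, and without any 1 of the 4 sufficient tips, at adjusted p-values of 0.0575 to 0.0862 and differences of -4.38 to -3.91. Without midsection sufficient replicate 2, the highest library, the difference was -3.11 and the adjusted p 0.157. At limiting phosphate ANS was at 0.594, 0.203, 0.234 and 0.711 CPM in tips and 3.86, 0.395, 5.60 and 10.2 CPM in midsections, where replicate 2 fell among the tips. The difference there was -3.44 ± 1.37 with an adjusted p of 0.117 from edgeR.

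DFR and F3'5'H were too sparse for the filter in M82. DFR had 3 counts over the sufficient tips against 48 in the midsections, and 2 against 61 at limiting phosphate, ratios of 24.0 (95% exact interval 7.72 to 120) and 19.9 (5.27 to 168). Midsection sufficient replicate 2 gave 46 of the 48 counts, and the ratio of mean CPM at sufficient phosphate was 7.67. F3'5'H had 2 counts against 33 at sufficient phosphate and 1 against 42 at limiting phosphate, ratios of 24.7 (6.32 to 212) and 27.3 (4.65 to 1105), beside a ratio of mean CPM of 71.7 at sufficient phosphate. These intervals cover counting error only, not the spread between libraries. With no low-count filter neither passed the test: the adjusted p-values from edgeR were 0.329 and 0.251 for DFR and 0.181 and 0.273 for F3'5'H at sufficient and limiting phosphate. Both genes were at 0 in midsection limiting replicate 2, the library in which ANS was also lowest.

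Of the regulators, MYB12 had no count in any of the 8 M82 tips. It had 1 count over the sufficient midsections and 15 over the limiting ones, of which 14 were in replicate 3, at 1.15 CPM. With the limiting tips set to the floor of 3 counts summed over the group, limiting midsections were 3.26-fold higher in MYB12, which is not a bound. The 95% exact interval of the midsection to tip ratio at limiting phosphate began at 2.34 and had no upper limit. It covers counting error only, and both values rest on that library. With no low-count filter the fitted tip minus midsection difference of MYB12 at limiting phosphate was -4.44, with an adjusted p of 0.242 from edgeR. ANT1 had no count in any of the 32 libraries, so neither its level nor any difference was measurable at this depth.

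Set against the whole table, the tip and midsection of M82 differed widely. At sufficient phosphate 27.3% of the 18275 genes tested were called, 13.7% lower in the tip, and 3 of the 6 tested members were called, all lower. At limiting phosphate 10.4% of genes were called, 4.27% lower in the tip, and 1 of 6 members was called, also lower. The median log2 difference was -1.49 over the 6 members at sufficient and -2.23 at limiting phosphate, beside -0.02 over all genes tested in each. CHS1, CHS2 and ANS were near 0 in tips and passed the low-count filter only through midsections. The filter thus favours a negative member median, which does not describe the pathway as a whole. The sufficient count of 3 fell to 0 when only libraries of at least 2000000 counts were used. That setting, chosen after the depths had been seen, left out tip sufficient replicates 3 and 4 and midsection sufficient replicate 3. Adjusted p-values from edgeR were 0.133 for CHS2, 0.166 for FLS and 0.111 for ANS. The differences there were -3.76 for CHS2 and -4.31 for ANS, from fewer libraries.

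**Figure D2:**
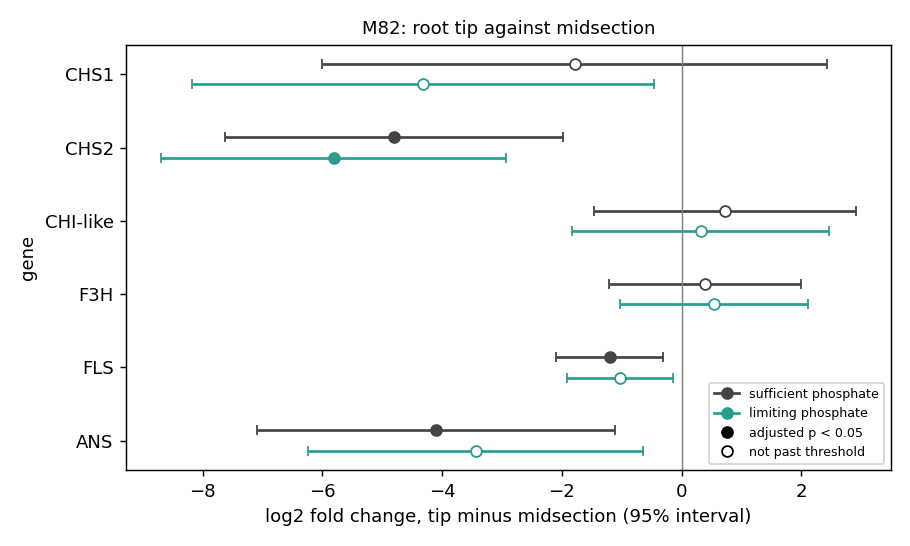
Fitted log2 fold change, tip minus midsection (x axis), of the 6 members tested in M82 (y axis) at sufficient and limiting phosphate, with 95% intervals from edgeR. Filled points passed an adjusted p of 0.05. CHS2 passed at both supplies, FLS and ANS at sufficient phosphate, and the intervals of CHI-like and F3H include 0.

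The phosphate comparison asked whether roots without added phosphate changed the pathway. In M82 tips 0 of the 6 tested members were called, where 1.42% of all genes were, and in midsections 0 of 6, where 1.43% were. Over the 6 members 0 had an unadjusted p under 0.05 in either segment. DESeq2 and limma-voom also called none of these 6 genes in either segment. The median log2 change, limiting minus sufficient, was -0.05 over the members and 0.03 over all genes in tips, and 0.07 over the members and -0.02 over all genes in midsections.

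The intervals show what could have been missed. For FLS, the best measured member, the change was -0.31 in tips (95% interval -1.20 to 0.57) and -0.49 in midsections (-1.36 to 0.38), both on the log2 scale. For F3H it was 0.50 in tips (-1.09 to 2.08) and by 0.35 in midsections (-1.25 to 1.95). The intervals of ANS were far wider around estimates of 0.32 in tips (-2.51 to 3.15) and of -0.34 in midsections (-2.84 to 2.16). CHS2 gave -1.12 in tips (-4.03 to 1.79) and -0.11 in midsections (-2.37 to 2.14). CHI-like gave -0.14 in tips (-2.31 to 2.02) and 0.26 in midsections (-1.89 to 2.42).

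CHS1 had the largest fitted change of the 6 tested members, 2.59 ± 1.84 in midsections (95% interval -1.16 to 6.33), with an adjusted p of 0.695 from edgeR. Summed over libraries, 111 counts at limiting phosphate faced 6 at sufficient phosphate, a ratio of 13.1 (95% exact interval 5.82 to 36.4 for counting error), whereas the ratio of the mean CPM was 4.49. The groups overlapped, because limiting replicate 2 held no count and sufficient replicate 3 reached 2.79 CPM from 3 counts in a shallow library. Leaving out 1 library at a time moved the fitted change between 1.55 and 4.71.

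**Figure D3:**
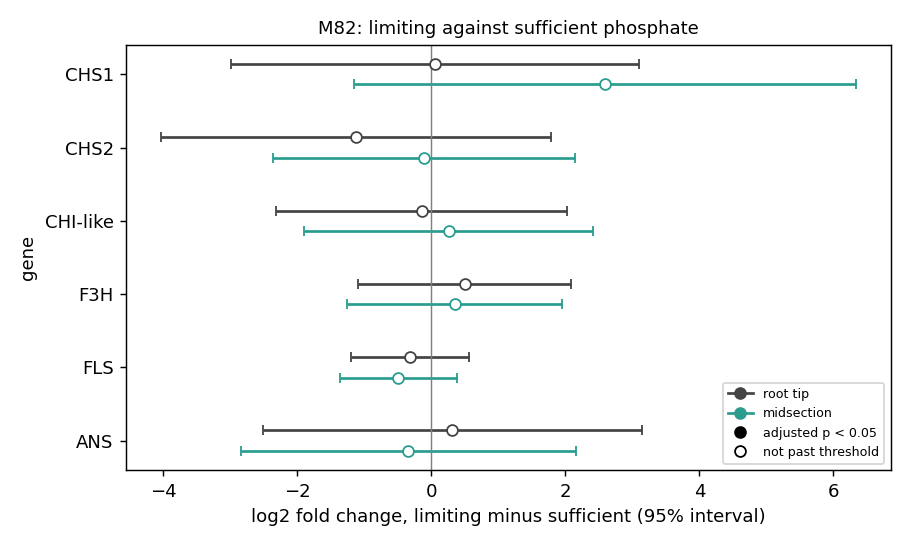
Fitted log2 fold change, limiting minus sufficient phosphate (x axis), of the 6 members tested in M82 (y axis) in tips and midsections, with 95% intervals from edgeR. All 12 intervals include 0. The intervals of FLS are the narrowest and that of CHS1 in midsections reaches from -1.16 to 6.33.

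Whether the response to phosphate itself differed between segments was tested as an interaction in the same M82 fit. None of the 6 tested members was called, where 0.969% of genes were, and 0 had an unadjusted p under 0.05. DESeq2 and limma-voom called none of the 6 either. The estimates, tip response minus midsection response, ran from -2.54 ± 2.81 (log2, SE) for CHS1 to 0.66 ± 1.86 for ANS. For FLS the estimate was 0.18, with a 95% interval of -1.07 to 1.42.

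Libraries of the same group varied widely in this pathway. The biological coefficient of variation fitted for each M82 gene was 1.39 for CHS1, above that of 92.8% of genes, 1.06 for ANS and 1.02 for CHS2, beside a median of 0.596 over all genes tested. FLS had the lowest value of the 6 tested members, 0.425, with 29.9% of genes below it, and F3H and CHI-like lay between at 0.716 and 0.922. The genes with the widest spread were thus those with tips near 0.

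In the 8 M82 midsections, 36 relations among 9 members were computed, of which 25 were positive by Pearson's r and 0 passed the adjusted threshold. Sufficient replicate 2 was the highest of its group for F3'5'H, DFR and ANS, and limiting replicate 4 was the highest of its group for CHS1, CHS2, F3'5'H, DFR, ANS and F3H. The libraries mix both supplies. Of all 36, the lowest Pearson p-values were those of F3'5'H with DFR and of DFR with ANS. F3'5'H and DFR had a Pearson r of 0.93 (exact permutation p = 0.00322, adjusted 0.115) and a Spearman rho of 0.81 (p = 0.0186, adjusted 0.144). DFR and ANS had an r of 0.84 (exact permutation p = 0.0064, adjusted 0.115) and a rho of 0.84 (p = 0.0131, adjusted 0.144). Without the 2 libraries farthest from the median of the first gene, r was 0.67 and 0.59. By rank, CHS1 and F3'5'H had a rho of 0.85 (exact permutation p = 0.0115, adjusted 0.144) with an r of 0.62, and FLS and DFR had a rho of -0.80 (p = 0.0222, adjusted 0.144) with an r of -0.51. None of these relations holds up at this number of libraries.

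**Figure D4:**
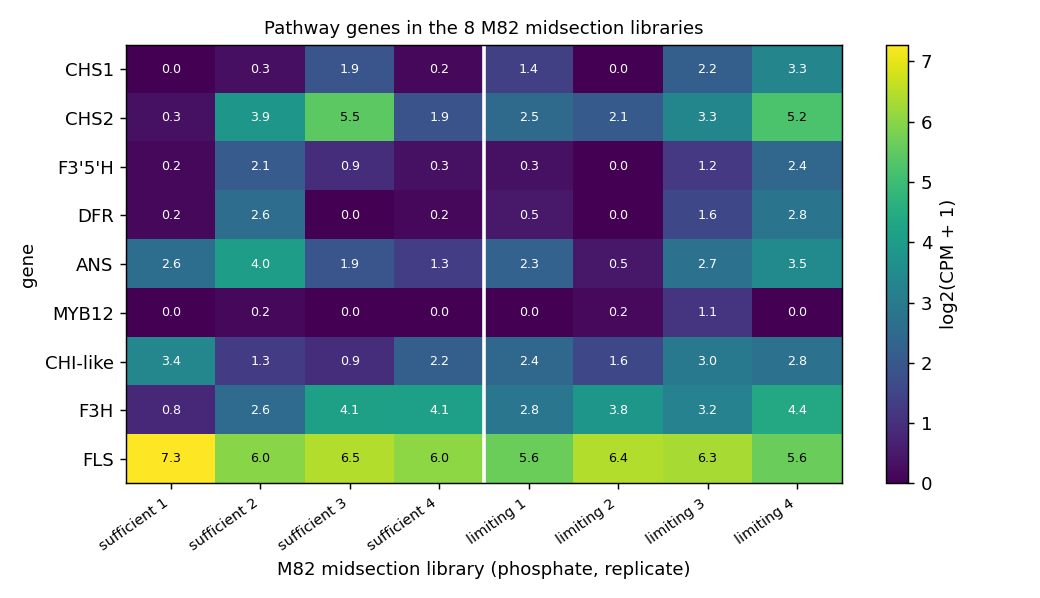
Level as log2(CPM + 1), shown by colour and by the printed value, of 9 members (y axis) in the 8 M82 midsection libraries (x axis), with a white line between sufficient and limiting phosphate. F3'5'H, DFR and ANS are high together in sufficient replicate 2 and limiting replicate 4, and FLS has the highest value in each library.

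Over all 16 M82 libraries, each gene's deviations from its group means, in log2(CPM + 1), were correlated with those of CHS1 as a description of likeness. Among 18274 genes CHS2 ranked at 8 with r = 0.77. The other members ranked far lower: ANS at 435 (r = 0.51), F3H at 1767 (0.34), CHI-like at 5964 (0.10) and FLS at 9532 (-0.06). The 3 most alike genes outside the pathway list were Solyc10g054480.2.1 (0.89), Solyc01g006050.2.1 (0.88) and Solyc09g005400.3.1 (0.85). Of these 3, Solyc01g006050.2.1 alone was higher in tips, at means of 52.7 and 43.3 CPM at sufficient and limiting phosphate, than in midsections, at 13.6 and 12.7 CPM. CHS1 held 5 counts over the sufficient tips, 4 over the limiting tips and 6 over the sufficient midsections, so the ranking rests on few counts. CHS1 and CHS2 are similar genes, and the part of shared reads in their likeness was not tested.

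In Pennellii, depth set narrow limits. A total of 14 libraries entered the fit, and 3 counts, the floor for a library, amounted to 97.9 and 180 CPM in tip sufficient replicates 2 and 4 and to 78.3 CPM in midsection limiting replicate 3. Of the 10 members 7 passed the filter, the 6 of M82 and DFR. In none of the 4 comparisons was a member called by edgeR, where 0.684% of the 13450 genes tested were called between supplies in tips, 0.119% in midsections, 0.238% between segments at sufficient and 0.32% at limiting phosphate. An unadjusted p under 0.05 was reached by 0 members between supplies and by 1 member, CHS2, between segments at each supply.

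CHS2 reads were few in Pennellii tips at sufficient phosphate. At sufficient phosphate its tips stood at 0, 0, 2.37 and 0 CPM, with 3 counts in all, and the 3 midsections used stood at 119.5, 85.7 and 74.0 CPM, with 1667 counts. The groups did not overlap, although the floors of the tips in replicates 2 and 4 lie within or above the range of the midsections. The summed ratio was 60.9 (95% exact interval 20.8 to 296). The fitted difference was -6.21 ± 1.78 (95% interval -9.70 to -2.71), with an adjusted p of 0.106 from edgeR that became 0.0405 under RLE scaling.

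At limiting phosphate CHS2 was at 13.0, 19.9 and 0.920 CPM in the 3 Pennellii tips used and at 2.00, 28.1, 731 and 65.2 CPM in midsections. The value of 731 CPM was 28 counts in a shallow library, and the groups overlapped. The difference was -4.08 ± 1.43 (adjusted p = 0.223 from edgeR) with that library and -1.51 without it.

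The late genes of Pennellii were patchy. DFR was at 0, 26.4 and 28.8 CPM in the sufficient midsections used, replicates 2 to 4, and at 4.00, 0, 0 and 6.73 CPM in limiting midsections. Sufficient tips held 1 count of DFR in all, while the limiting tips stood at 4.12, 57.1 and 0 CPM. F3'5'H was at 0, 12.7 and 13.9 CPM in sufficient midsections, with no count in sufficient tips and 1 count in limiting tips, and it was at 0 in all limiting midsections but replicate 4, at 2.47 CPM. ANS stood at 0, 41.7 and 33.9 CPM in sufficient and at 9.99, 0, 0 and 4.71 CPM in limiting midsections.

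These 3 genes shared their libraries: all were at 0 in midsection sufficient replicate 2 and high in replicates 3 and 4. CHS1, an early gene, did the same, at 0, 38.1 and 40.4 CPM. Replicate 2 was the shallowest of these libraries, with 464792 counts against 13124725 and 6483725, and it held 69 counts of FLS. Whether its depth accounts for the zeros was not tested. Summed over midsections, the ratio of sufficient to limiting was 5.98 for F3'5'H (258 against 11 counts, 95% exact interval 3.29 to 12.1), 4.27 for DFR (2.99 to 6.31) and 7.57 for ANS (5.13 to 11.7). These intervals cover counting error only. In the fit over libraries the limiting minus sufficient change was -2.28 ± 1.81 for DFR and -2.30 ± 2.29 for ANS, and neither passed the test in edgeR.

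In Pennellii tips ANS was at 0, 0, 0 and 2102 CPM at sufficient phosphate, where the last value was 35 of the 6225 counts of replicate 4. The limiting tips stood at 19.0, 44.5 and 0 CPM. With that library the fitted tip minus midsection difference in ANS at sufficient phosphate was 4.22 ± 2.41, and with libraries of at least 100000 counts alone it was -9.35, neither past the threshold in edgeR (adjusted p = 0.645 and 0.693). The sufficient tips left in the latter fit held no ANS count, so the size of that difference is not measurable. The direction for ANS in sufficient Pennellii tips therefore rests on 1 library.

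**Figure D5:**
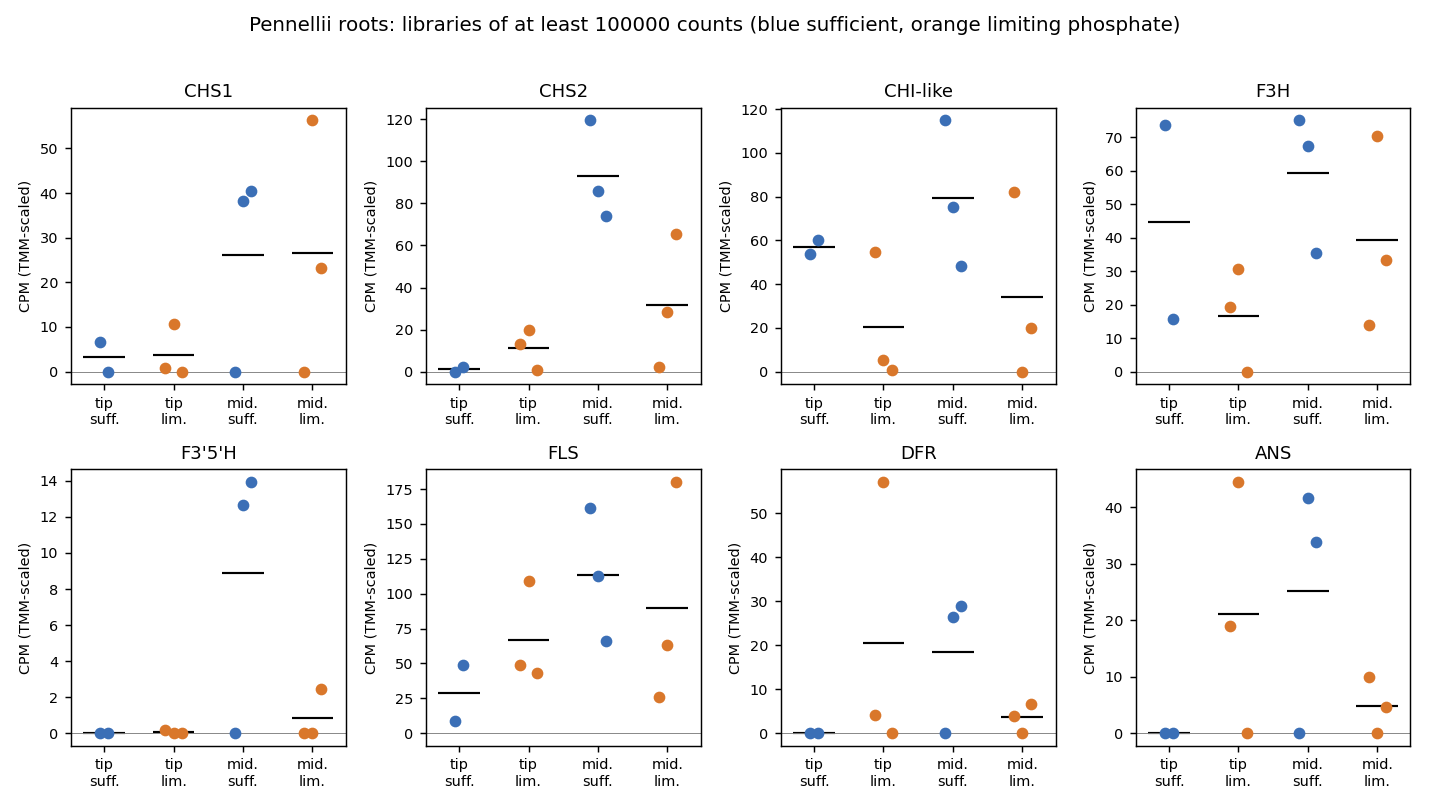
Level of 8 pathway genes (y axis, TMM-scaled CPM, linear, a separate scale for each gene) in the Pennellii libraries of at least 100000 counts, grouped by segment and phosphate supply (x axis). Each point is a library and the horizontal line is the group mean, with no error bar. CHS2 is near 0 in sufficient tips and at 74.0 to 119.5 CPM in sufficient midsections, and F3'5'H is high in 2 sufficient midsections.

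FLS was detected in all 14 Pennellii libraries used, although 2 tip libraries held 1 read each. It held more reads than any other member in 5 of them and tied with DFR in 1, with a median share of 29.7%. Its levels were 8.93, 32.6, 49.0 and 60.0 CPM in sufficient and 48.6, 109 and 43.2 CPM in limiting tips. The midsections held 162, 112 and 66.0 CPM at sufficient and 26.0, 63.3, 78.3 and 180 CPM at limiting phosphate. Tip limiting replicate 4, with 1859241 counts, held 49 counts of the members in all, of which 47 were FLS.

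The levels of CHS1, CHI-like and F3H varied widely within Pennellii groups. CHS1 was at 6.70, 0, 0 and 0 CPM in sufficient tips and at 0, 38.1 and 40.4 CPM in sufficient midsections. Limiting groups held 0.824, 10.6 and 0 CPM of CHS1 in tips and 0, 56.3, 0 and 23.1 CPM in midsections. CHI-like ran from 0 to 60.0 CPM in sufficient tips and from 48.3 to 115 CPM in sufficient midsections. F3H ran from 0 to 73.7 CPM in sufficient tips and from 35.3 to 75.0 CPM in sufficient midsections. At limiting phosphate CHI-like ran from 0.920 to 54.8 CPM in tips and from 0 to 81.9 CPM in midsections, and F3H from 0 to 30.5 and from 14.0 to 70.3 CPM. Over the 7 tested members, the fitted change from sufficient to limiting phosphate ran from -4.51 (ANS) to 3.18 (CHS2) in tips and from -2.30 (ANS) to 1.05 (CHS2) in midsections, on the log2 scale. Of these extremes, ANS in tips and CHS2 in midsections rest on shallow libraries. With libraries of at least 100000 counts alone, the tip changes were 9.05 for ANS and 8.99 for DFR. The midsection change of CHS2 was -1.53 there. The other extremes changed little, to 3.14 for CHS2 in tips and -2.26 for ANS in midsections. None of these passed the threshold. The sufficient tips left in that setting held no count of ANS or DFR, so the size of either tip change is not measurable. MYB12 was counted in 2 libraries, midsection sufficient replicate 3 with 23 counts, 1.73 CPM, and midsection limiting replicate 4 with 4 counts, 0.897 CPM.

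Differences between the species were tested as differences of responses in 1 fit of all 30 libraries, where 8 members passed the filter. For the phosphate response in tips 0 of 8 members were called, with 1.24% of 19460 genes called, and for the response in midsections 0 of 8, with 0.0411%. For the tip minus midsection difference at sufficient phosphate 0 of 8 members were called, with 1.98% of genes called. An unadjusted p under 0.05 was reached by 0, 0 and 1 members. That member was ANS, at 8.27 ± 2.75 (log2, SE) with an adjusted p of 0.108 from edgeR, a value that includes the Pennellii tip library of 6225 counts. With Pennellii libraries of at least 100000 counts alone it was -6.26, again not past the threshold. The sufficient Pennellii tips left there held no ANS count, so that size is not measurable.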

How the data were processed

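The values the authors deposited are estimated counts, and 6.09% of them were fractional. Fractional values occurred in 2, 2 and 6 of 32 libraries for CHS1, CHS2 and ANS, and in none for the other members. Per the labels' protocols, BrAD-seq, which keeps the strand and reads 3' ends, was used with single reads of 50 bases. Tools named in the submitters' processing notes were Bowtie 1.2.2, FastQC, limma and edgeR. For the genome build, the annotation and the origin of the fractional values: not given in the sources used here.

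Estimated counts were rounded to whole numbers. Genes were kept by filterByExpr (minimum count 10, minimum total 15). Libraries were scaled by TMM factors and tested with edgeR 4.0.16 (robust quasi-likelihood fit, limma 3.58.1, R 4.3.3), with 1 group mean per group. There was 1 fit for M82, 1 for Pennellii and 1 for all 30 libraries. An SE is the size of a log2 fold change over the root of its F. The alternatives used DESeq2 1.42.0, limma-voom and other filters, scalings and sample sets. The code was tested on simulated data.

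The members and the tests were chosen with earlier results of these data known. All 10 members are named, and likeness was ranked against CHS1. A RefSeq table of assembly SLM_r2.1 held none of the IDs. It held 8 of the 10 names, each on the chromosome that the ID numbers, so no coordinates or sequences are given.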

Additional observations from a re-analysis of the deposited data

Results flagged for a closer look

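In 8 of 38 sets tested, each a gene in a group of 4 libraries, 1 library stood apart from the other 3 by Dixon's criterion. Sets of different genes share libraries. A set with 3 libraries at 0 and 1 above 0 always meets this criterion, so the number of such sets was not compared with chance. In M82, CHI-like was at 0.641 CPM in tip sufficient replicate 1, with the nearest library at 8.26 CPM. CHS1 was at 2.79 CPM in M82 midsection sufficient replicate 3, with the nearest at 0.222 CPM. CHS1 was at 0 CPM in M82 tip limiting replicate 1, with the nearest at 0.203 CPM, a gap of single counts.

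In Pennellii, ANS was at 2102 CPM in tip sufficient replicate 4, with the other 3 at 0. DFR was at 32.6 CPM in tip sufficient replicate 2, which was 1 count. CHS1 was at 6.70 CPM in tip sufficient replicate 1 and CHS2 at 2.37 CPM in tip sufficient replicate 3, in each case with the other 3 libraries at 0. CHS2 was at 731 CPM in midsection limiting replicate 3, with the nearest library at 65.2 CPM.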

How the results depend on the processing

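Of 232 recomputed counts of called members, 217 stayed within 1.5 times the reported count and 210 were equal to it, and of 1573 recomputed single-member results 19 lost their call, 8 gained one and 0 reversed a call. The M82 count of 3 at sufficient phosphate, tip against midsection, was 1 with limma-voom (ANS), 2 with no low-count filter, 2 with a filter of 5 CPM in 4 libraries (which ANS did not pass), 0 with only the 2 groups compared (where FLS, at an adjusted p of 0.0899 from edgeR, was the only one of the 3 that passed the filter), 0 with only libraries of at least 2000000 counts (added after the depths had been seen), and 1 to 3 when libraries were left out in turn. At limiting phosphate the count of 1 was 2 with DESeq2, with only the 2 groups and with the deeper libraries, and 0 to 1 when libraries were left out in turn. In Pennellii, CHS2 was called between segments at sufficient phosphate under RLE scaling, a count of 1. ANS was called between supplies in tips without tip sufficient replicate 1, at -4.97 with an adjusted p of 0.0438 from edgeR, so the range was 0 to 1. That value rests on the tip library of 6225 counts: with libraries of at least 100000 counts alone, ANS was at 9.05, not past the threshold. The sufficient tips left there held no ANS count, so that size is not measurable. For the species difference between segments the count was 1 with DESeq2 and 1 with no low-count filter, and 0 to 1 when libraries were left out in turn. Why these counts moved was not tested.

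Over all genes, the M82 calls between segments at sufficient phosphate were 4992, and 3272 to 6154 under other settings. At limiting phosphate they were 1908, and up to 3157 with limma-voom. Between supplies they were 260 in tips and 507 with DESeq2, and 261 in midsections and 672 with limma-voom.

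Same-numbered M82 libraries deviated together weakly if at all. Over 24 such pairs the correlation of deviations from group means ran from -0.036 to 0.098, with a median of 0.023. Over 72 pairs of different numbers it ran from -0.070 to 0.065, with a median of -0.005. In M82, 0 pairs of either kind were above 0.1. These values do not settle whether the numbers pair the samples, and the reported fits used no pairing. In Pennellii 3 of 18 same-numbered pairs were above 0.1 (highest 0.215), and 1 of 55 pairs of different numbers. With the replicate block the sufficient count was 1, with adjusted p-values from edgeR of 0.0514 for CHS2, 0.066 for ANS and 0.027 for FLS. With the block the Pennellii calls over all genes went from 92 to 8 and from 16 to 4 between supplies in tips and midsections, and from 32 to 4 and from 43 to 3 between segments at sufficient and limiting phosphate; no member was called with or without it.

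Depth limits the sparse genes most: CHS1, CHS2, DFR, F3'5'H and ANS rest on few counts in M82 tips, MYB12 has none there, and no Pennellii library below 100000 counts can show a low gene.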
